A study of Mus musculus with 7 samples.

Results

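The forkhead (Fox) genes encode transcription factors that share a winged-helix DNA-binding domain and read related sequences built around a TGTTTAC core. Some family members can bind their sites in closed chromatin and open it, others repress, and the FoxO members leave the nucleus when insulin signalling is active. In the early embryo different members mark mesoderm, endoderm, neural and surface ectoderm derivatives, and FoxH1, which is not among the genes described here, is a DNA-binding partner of activated Smad2 and Smad3.

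Accessible sites around 34 Fox genes, a list that does not include Foxa1, Foxa2, Foxd3 or Foxh1, were compared between wild type (WT) and Smad2/3 double knockout (DKO) epiblast-like cells (EpiLCs). A site was assigned to a gene where its midpoint lay within 50 kb of a curated RefSeq transcription start site (TSS) of that gene in mm10. This gave 179 of the 75880 listed sites, and every one of the 34 genes had at least 1. A site within 1 kb of a TSS of a listed gene was called a promoter site (35 sites). The other 144 were called flank sites, and some of them lie within 1 kb of the TSS of a gene outside the list. Because neighbouring Fox genes share sites (Foxf1, Foxc2 and Foxl1; Foxd2 and Foxe3), 19 sites belonged to more than 1 gene and there were 206 pairs of a gene and a site. For 56 of the sites the nearest TSS belonged to a gene outside the list.

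The study measured chromatin accessibility by ATAC-seq, in which the Tn5 transposase cuts and tags open DNA, to ask how loss of both Nodal/activin effectors changes the regulatory landscape. There were 3 differentiations of WT cells, 3 of DKO cells, and 1 library made from Tn5-treated genomic DNA. Both genotypes were of the 129/Sv//Ev strain. Embryonic stem cells kept naive with PD0325091, CHIR99021 and LIF were moved to activin A and Fgf2 for 48 h, and the cells were taken at day 2. WT was the CCE line, and DKO was the clone KT15.1F6, which combines the Smad2 tm1Rob/tm1Rob genotype with a CRISPR deletion of Smad3 exon 1. With 1 clone per genotype, effects of the clone and of the genotype cannot be told apart. In a mixed population a site open in fewer cells and a site less open in every cell also cannot be told apart.

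For every site the table gave the concentration, the log2 of the mean normalized reads, as 1 value over the 3 libraries of each genotype. The spread between differentiations and the depth of the libraries are therefore unknown, no difference was tested, and the counts below are descriptions, read against the shares over all sites. The difference is the DKO concentration minus the WT concentration on the log2 scale. A site is called lower or higher in DKO where the concentrations differ by more than 1.5-fold (0.585). A concentration of 4 corresponds to 16 normalized reads. The Smad3 promoter site, next to the deleted exon, had a concentration of 5.42 in WT and -0.10 in DKO, the lowest DKO value in the table. The Smad2 promoter site was at 8.35 in WT and 8.28 in DKO, so its accessibility does not show the Smad2 allele. Sites at the promoters of 4 genes looked up as expressed in EpiLCs (Dnmt3b, Fgf5, Pou3f1 and Pou5f1) differed by -0.03 to 0.23. Otx2, the fifth gene looked up, had no site within 1 kb of its TSS. These promoter values do not show that the EpiLC state is unchanged in DKO. The paper reports lower expression of Fgf5 and Oct6 (Pou3f1) in DKO EpiLCs, and decreased accessibility at both genes. It also detected Oct4 (Pou5f1) in undifferentiated stem cells.

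The 5 sites with the largest differences among those with a mean concentration of at least 4 comprised 2 in introns of Foxp1 and 3 within 50 kb of Foxi3. Their mm10 sequences, on the plus strand and limited to the central 300 bases where a site was longer, show where the consensus strings of factors active in these cells occur. Capitals mark a forkhead (TGTTTAC), FoxH1 (TGTGGATT), octamer (ATGCAAAT) or Otx2 (GGATTA) string on either strand. The first site was higher in DKO and the other 4 were lower. The 3 Foxi3 sites lie in a long stretch of chromosome 6 where nearly all sites were lower (median difference -1.11, described below).
Foxp1 intron, chr6:99240860-99241150: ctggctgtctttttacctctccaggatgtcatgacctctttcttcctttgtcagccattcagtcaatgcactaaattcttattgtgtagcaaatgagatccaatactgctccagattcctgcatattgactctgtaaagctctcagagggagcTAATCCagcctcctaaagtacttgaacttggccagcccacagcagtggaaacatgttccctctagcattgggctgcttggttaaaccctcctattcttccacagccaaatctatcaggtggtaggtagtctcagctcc
Foxi3, 9.14 kb downstream, chr6:70965600-70965899: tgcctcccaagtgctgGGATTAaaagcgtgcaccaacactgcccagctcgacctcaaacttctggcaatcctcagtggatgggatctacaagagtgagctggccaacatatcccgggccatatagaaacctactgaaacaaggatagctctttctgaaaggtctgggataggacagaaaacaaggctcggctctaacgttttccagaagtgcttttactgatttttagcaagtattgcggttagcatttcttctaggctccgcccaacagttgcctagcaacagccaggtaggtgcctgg
Foxi3, 34.8 kb upstream, chr6:70921680-70921979: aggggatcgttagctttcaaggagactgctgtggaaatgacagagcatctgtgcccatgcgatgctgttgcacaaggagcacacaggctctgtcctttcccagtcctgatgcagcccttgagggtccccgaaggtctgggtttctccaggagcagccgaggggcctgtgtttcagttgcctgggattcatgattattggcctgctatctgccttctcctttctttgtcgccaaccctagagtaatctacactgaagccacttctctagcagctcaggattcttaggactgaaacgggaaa
Foxi3, 11.1 kb downstream, chr6:70967585-70967884: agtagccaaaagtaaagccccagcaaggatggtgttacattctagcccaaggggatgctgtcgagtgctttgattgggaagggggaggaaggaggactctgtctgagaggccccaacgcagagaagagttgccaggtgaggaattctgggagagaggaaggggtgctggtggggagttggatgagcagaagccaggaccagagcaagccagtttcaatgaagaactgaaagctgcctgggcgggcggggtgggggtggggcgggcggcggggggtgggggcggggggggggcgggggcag
Foxp1 intron, chr6:99439925-99440224: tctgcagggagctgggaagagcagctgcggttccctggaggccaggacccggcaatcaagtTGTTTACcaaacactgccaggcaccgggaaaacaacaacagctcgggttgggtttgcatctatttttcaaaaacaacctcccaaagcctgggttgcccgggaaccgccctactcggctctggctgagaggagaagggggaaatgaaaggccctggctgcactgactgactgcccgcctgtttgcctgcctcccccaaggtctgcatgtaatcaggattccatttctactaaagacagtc

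The higher Foxp1 window held 1 Otx2 string (read as TAATCC on this strand). The Foxi3 window at chr6:70965600-70965899 held 1 as well. The lower Foxp1 window held 1 forkhead string. The short Smad element CAGAC, which is not capitalised, was present in each of the 4 lower windows and absent from the higher one. It was present in 52.5% of the 300-base windows of all listed sites, so its presence in any 1 window carries little information.

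Over all 179 Fox sites, 23 (12.8%) were lower in DKO and 13 (7.26%) were higher. Among all listed sites 16.0% were lower and 8.51% were higher, so sites near Fox genes did not pass the fold more often than sites in general. The mix of site classes differed. Promoter sites of listed genes made up 35 of the 179, and promoter sites of any gene 15001 of the 75880. Whether this mix has a part in the shares was not tested. The median difference was -0.12 near Fox genes and -0.08 over all sites. Promoters and flanks differed in how often they passed the fold. Of the 35 promoter sites, 1 was lower (2.86%) and 0 were higher, against 4.17% and 3.69% of the 15001 promoter sites of all genes. Of the 144 flank sites, 22 were lower (15.3%) and 13 higher (9.03%), against 16.7% and 9.92% of the 32686 flank sites of all genes. An excess of differing sites in flanks over promoters was found near Fox genes and near genes in general. Flanks also had less signal than promoters. The median WT concentration was 4.97 at Fox flanks and 6.75 at Fox promoters, and 4.80 and 6.70 over all genes. Whether the lower signal has a part in this excess was not tested.

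**Figure D1:**
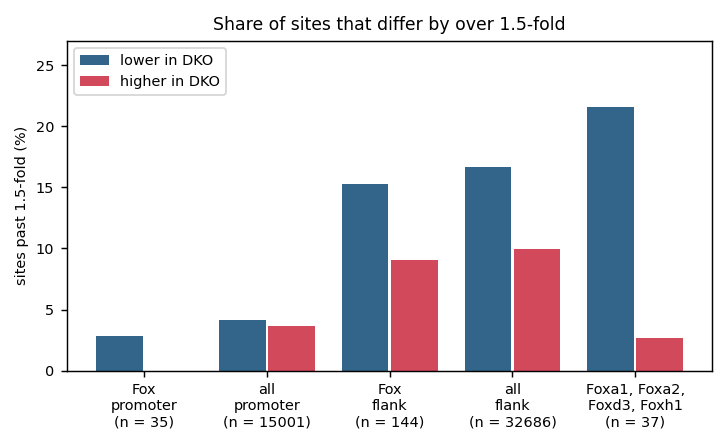
Percentage of sites that differed by more than 1.5-fold (vertical axis) in each class of sites, with the number of sites below each pair of bars. The bars of Fox promoter and flank sites stand below those of all promoter and all flank sites, and flanks exceed promoters in both. The flank classes are unlike: Fox flanks include promoter sites of genes outside the list, and all flanks leave out promoter sites of any gene.

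Taken gene by gene, 19 of the 30 genes with both kinds of site (63.3%) had a lower median difference in the flanks than at the promoter. The same held for 8170 of 14821 genes overall (55.1%). The 13 higher sites lay near 10 of the genes, the 23 lower ones near 15, and 4 genes had both. No site passed the fold at 13 of the 34 genes. The share of all genes with such sites was not computed, so these gene counts cannot be read as many or few. Of the 35 flank sites past the fold, 20 were intergenic, 12 intronic and 3 exonic, and 9 were nearest to the TSS of another gene. Of the 69 intergenic Fox flank sites 12 were lower and 8 higher, and of the 47 intronic ones 8 were lower and 4 higher. The larger intergenic count therefore does not show a preference for intergenic sites. Of the 56 Fox sites nearest to another gene 7 were lower and 2 higher, against 16 and 11 of the 123 nearest to a listed gene. Shares by place over all flank sites were not computed. Distances below are to the nearest listed Fox TSS for Fox sites, and to the nearest curated TSS of any gene for all sites. The Fox bins therefore hold some promoter sites of other genes, which the bins of all sites do not, and the shares are not a like comparison. From 1 to 5 kb, 5 of 26 sites were lower (19.2%) and 3 higher (11.5%), against 15.6% and 8.85% of all sites. From 5 to 20 kb, 4 of 46 were lower (8.70%) and 3 higher (6.52%), against 16.3% and 10.2%. From 20 to 50 kb, 13 of 72 were lower (18.1%) and 7 higher (9.72%), against 17.5% and 10.2%.

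Part of these calls rest on low signal. At a mean concentration of at least 4, 16 Fox sites were lower and 7 were higher, near 13 of the genes. Over all sites of that concentration 12.4% were lower and 5.40% higher. The other 13 calls, 7 lower and 6 higher, rest on sites under that level, of which there were 27 near Fox genes.

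The promoter sites of the Fox genes were wide. Their median width was 1010 bp, against 750 bp for all promoter sites, and their median WT concentration of 6.75 was close to the 6.70 of all promoter sites. Divided by width, the median WT level was 6.65 per kb (log2) for Fox promoters and 7.05 for all promoters. The sequence under them was rich in CpG dinucleotides: the median GC content was 69.7% and the observed over expected CpG ratio 0.921, against 65.0% and 0.785 for all promoter sites. Fox flank sites had medians of 55.2% and 0.387, also above the 50.7% and 0.254 of all flank sites.

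A promoter site was present at 30 of the genes, and the exceptions were Foxi1, Foxl1, Foxn1 and Foxn3. The highest WT promoter levels per kb were at Foxp1 and Foxp2 (7.80 each, log2), members of a subfamily of repressors, and at Foxn2 (7.77). Among the strongest promoter sites of each gene the lowest were at Foxc2 (5.62), Foxn4 (5.63) and Foxs1 (5.76). The strongest Foxa3 site (6.83) was nearest to the TSS of Sympk, and the site 61 bp from the Foxa3 TSS was at 5.52. By group, the median WT level per kb over promoter sites was 7.47 for the FoxP genes, 7.27 for genes of ectoderm, placodes, lens, cilia and gonad, 6.80 for broadly expressed members, 6.41 for endoderm, 6.33 for mesoderm and 6.24 for neural members. The mesoderm promoters ran from 5.62 to 7.23, a range that overlapped that of every other group. The neural promoters (5.63 to 6.49) all lay below the FoxP promoters (6.57 to 7.80).

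In DKO, the strongest promoter site of 17 genes was lower than in WT and that of 13 was higher, nearly all by small amounts. The median over the 35 promoter sites was -0.04, and for all promoter sites it was 0.01. Foxi3 was the single promoter past the fold (7.04 in WT, 6.00 in DKO, difference -1.04). Next came Foxk1, a regulator of metabolism and autophagy, at -0.48 (6.82 and 6.34). The largest positive difference was 0.55, at the weaker of the 2 Foxa3 promoter sites (3.05 and 3.60). This site also passed the fold when differences were centred on the median of all sites (-0.08). The stronger Foxa3 site was at 6.90 in WT and 7.11 in DKO. Its midpoint lay 936 bp from the Foxa3 TSS but 98 bp from that of Sympk, in a UTR exon of Sympk.

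**Figure D2:**
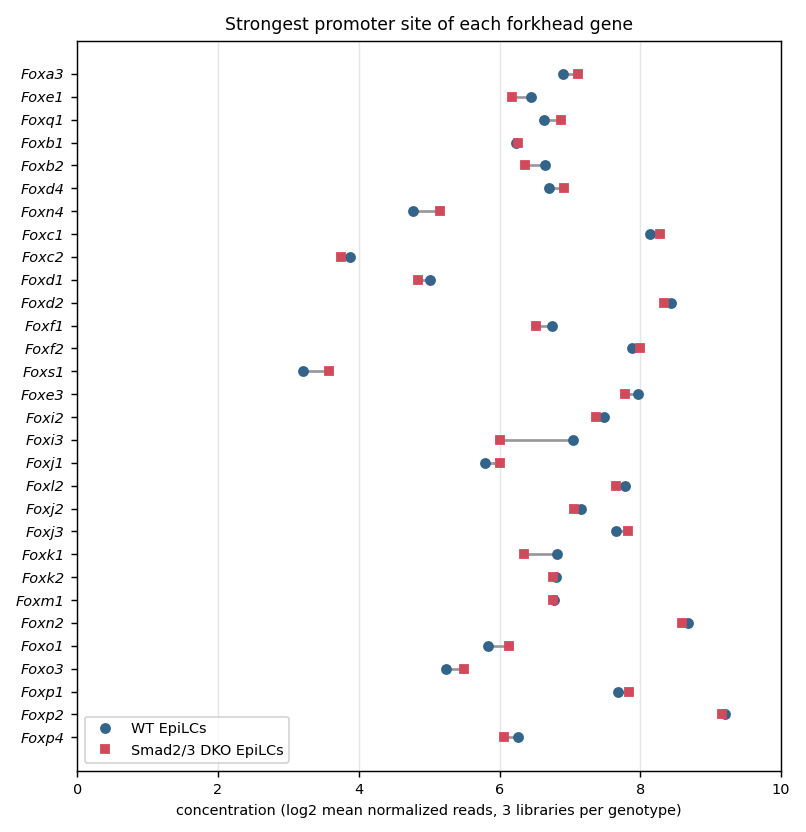
Concentration (log2 mean normalized reads; horizontal axis) in WT and DKO EpiLCs at the promoter site with the highest mean concentration of each of the 30 genes that had one. The 2 symbols lie close together for every gene except Foxi3, at 7.04 and 6.00. The Foxa3 site drawn is nearest to the TSS of Sympk.

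The mesoderm members are regulators of somites, vessels, kidney and gut mesenchyme. Their promoters differed by -0.28 to 0.37. The WT and DKO concentrations were 8.13 and 8.28 at Foxc1, 3.88 and 3.75 at Foxc2 (3.90 and 3.62 at its other promoter site), 5.01 and 4.84 at Foxd1, and 8.43 and 8.33 at Foxd2. Foxf1 had 6.75 and 6.51, Foxf2 7.88 and 7.99, and Foxs1 3.20 and 3.57. These pairs show strong and weak promoters in the same group, with the strong ones at Foxd2, Foxc1 and Foxf2 all between 7.88 and 8.43 in WT and none past the fold in DKO.

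Of the 45 sites near mesoderm members, 4 were lower (8.89%, against 16.0% over all sites) and 2 higher (4.44%, against 8.51%). An intergenic site 14.0 kb upstream of Foxc1, a gene required for eye, vessel and somite development, went from 5.22 in WT to 4.23 in DKO (-0.99). A site 1.46 kb upstream of Foxf2, a regulator of gut mesenchyme, went the other way, from 4.27 to 5.13 (0.86). The other 4 calls were at low-signal sites: 4.43 kb downstream of the Foxd1 TSS (4.52 and 2.97), between Foxd2 and Foxe3 (3.79 and 2.21, shared by both genes), and on either side of Foxf2 (1.47 and 2.97, 9.86 kb upstream; 3.87 and 2.77, 33.5 kb downstream). The cluster of Foxf1, Foxc2 and Foxl1 on chromosome 8 had no site past the fold, and the 9 sites near Foxl1, which held no promoter site of their own gene, ranged from -0.28 to 0.31.

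Among the endoderm and gut members, 0 of 18 sites were lower and 3 were higher (16.7%, against 16.0% lower and 8.51% higher over all sites). A single one of the 3 higher sites, near Foxe1, had a mean concentration of at least 4. The promoter of Foxe1, a thyroid regulator, was at 6.44 in WT and 6.18 in DKO, and that of Foxq1 at 6.63 and 6.87. The 2 higher sites near Foxe1 lay 27.6 kb (3.08 and 4.31) and 46.9 kb (3.97 and 4.85) downstream, both nearest to the TSS of Trmo. The third was in an intron of Foxa3, a liver and endoderm factor, at 3.18 and 4.28. Sites within 1 Mb around Foxa3 but beyond 50 kb had a median difference of 0.20, the highest neighbourhood of the 34 genes, and 22.6% of them were lower in DKO. Whether that neighbourhood has a part in the Foxa3 values was not tested.

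Near the neural members 3 of 16 sites were lower (18.8%, against 16.0% over all sites) and 0 higher (against 8.51%). Promoter concentrations in WT and DKO were 6.23 and 6.26 at Foxb1, 6.64 and 6.36 at the stronger Foxb2 site, 6.70 and 6.91 at Foxd4, and 4.77 and 5.15 at Foxn4. The weaker Foxb2 promoter site, 730 bp upstream of the TSS, went the other way (4.70 and 5.10). Foxd4 acts early in neural commitment, and 2 of the 3 lower sites belonged to it. Of these the upstream site at 1.48 kb went from 5.22 to 4.16 (-1.06), whereas the promoter site 866 bp downstream of the TSS differed by 0.21 in the opposite direction. The other was 25.7 kb upstream in an intron of Cbwd1 (4.87 and 4.27). The last was 46.8 kb downstream of Foxb1, a hypothalamic regulator (5.48 and 4.86). The calls at the Cbwd1 and Foxb1 sites ended when differences were centred on the median of all sites (-0.52 and -0.54) and with 8 reads added to both means (-0.45 and -0.51).

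Of the 39 sites near members of ectoderm, placodes, lens, thymus epithelium, cilia and gonad, 7 were lower (17.9%, against 16.0% over all sites) and 0 higher (against 8.51%), and 5 of the 7 were Foxi3 sites. The other 2 were the low-signal site shared by Foxd2 and the lens gene Foxe3, and a site in a UTR exon of Unc119 near the thymus gene Foxn1 (3.12 and 2.29). Promoters other than that of Foxi3 differed by -0.19 to 0.21: Foxe3 was at 7.97 in WT and 7.78 in DKO, Foxi2 at 7.49 and 7.37, the cilia regulator Foxj1 at 5.79 and 6.00, and the ovary gene Foxl2 at 7.78 and 7.66. Foxi1 had 4 flank sites, with differences from -0.56 to 0.26.

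Near the broadly expressed members, which act in the cell cycle, metabolism and insulin signalling, 5 of 47 sites were lower (10.6%) and 4 higher (8.51%), against 16.0% and 8.51% over all sites. Promoters of Foxj2 (7.16 in WT, 7.05 in DKO), Foxj3 (7.65 and 7.82), Foxk2 (6.80 and 6.76), the mitotic regulator Foxm1 (6.77 and 6.76) and Foxn2 (8.68 and 8.59) differed by at most 0.17. Those of the insulin-responsive Foxo1 (5.84 and 6.14) and Foxo3 (5.24 and 5.49) were slightly higher in DKO. All sites of these FoxO genes had positive differences, from 0.21 to 0.72, the largest in an intron of Foxo3, 2.61 kb from its TSS (4.43 and 5.15).

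The remaining calls at broadly expressed genes went both ways. The intron of Foxn2 held a lower site (5.55 and 4.81), and a low-signal site 8.89 kb upstream of the same gene was higher (2.61 and 4.17). Both lower sites near Foxm1 belonged by distance to other genes, 1 in an intron of Itfg2 (4.37 and 3.51) and 1 nearest to Tead4 (4.15 and 3.32). Sites from 50 kb to 1 Mb around Foxm1 had a median of -0.27, the lowest neighbourhood outside Foxi3. Lower sites also lay in an intron of Foxn3 (4.51 and 3.15) and 27.9 kb upstream of Foxj3 (4.07 and 3.06). Higher sites lay 35.1 kb upstream of Foxj2 (4.00 and 4.63) and 49.3 kb upstream of Foxk1 (5.27 and 5.89). With 8 reads added to both means, the differences at the Foxo3 (0.56), Foxj2 (0.45), Foxk1 (0.53) and Itfg2 (-0.56) sites no longer passed the fold.

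**Figure D3:**
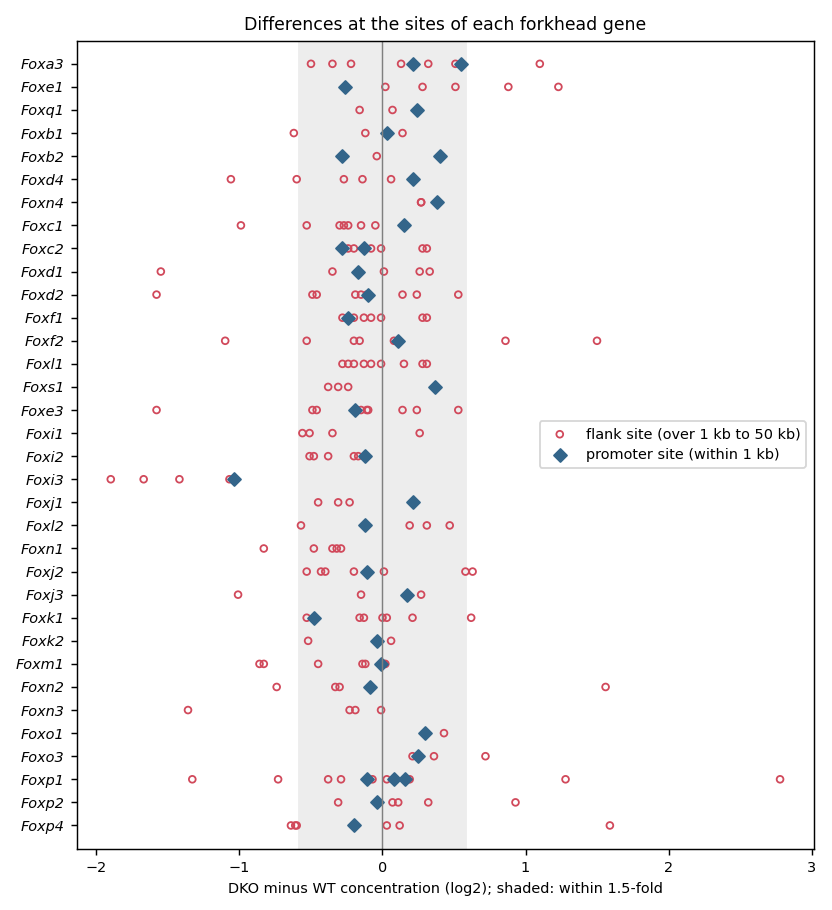
Difference between DKO and WT concentration (log2; horizontal axis) at every site of the 34 genes, with promoter sites as filled diamonds, flank sites as open circles and shading within 1.5-fold; a site near several genes is drawn at each. All promoter sites but that of Foxi3 (-1.04) lie in the shaded range, and Foxp1 carries the largest positive value (2.78).

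The FoxP genes encode repressors, and an alternatively spliced form of Foxp1 is known from pluripotent stem cells. Of their 25 sites 5 were lower (20.0%) and 4 higher (16.0%), against 16.0% and 8.51% over all sites. Of the 4 higher sites, 2 were under a mean concentration of 4, and 3 of the 5 lower calls, those of Foxp4, ended when differences were centred on the median of all sites. The promoters of Foxp2 (9.20 in WT, 9.16 in DKO) and Foxp4 (6.26 and 6.06) differed little. Within Foxp4, 3 sites were lower by similar amounts, at 20.1 kb (5.53 and 4.92), 36.8 kb (7.17 and 6.53) and 47.6 kb (4.68 and 4.08) from the TSS. After centring these differences were -0.53, -0.56 and -0.52, within the fold, and with 8 reads added the first and last were also within it (-0.50 and -0.43). A low-signal site 33.6 kb upstream of Foxp4 was higher (2.19 and 3.78), as was one in an intron of Foxp2 (2.84 and 3.77).

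Foxp1, on the minus strand at chr6:98925342-99520993, had the most sites (12) and the largest single difference of the family. The gene is 596 kb long, and its 4 curated TSSs lie at 0, 85.6, 254.5 and 492.7 kb from the most upstream one. The promoter sites, present at 3 of them, differed by -0.11 (6.61 and 6.50), 0.16 (7.68 and 7.84) and 0.08 (7.62 and 7.70), in order along the gene. Between these steady promoters, intragenic sites differed in both directions. The intronic site at chr6:99240860-99241150, 25.5 kb downstream of the TSS at 254.5 kb, had 3.23 in WT and 6.01 in DKO, which is 9.38 and 64.4 normalized reads, or 6.87-fold more in DKO. Its WT level was that of a weak site, and in DKO it exceeded the median listed site (5.00). A second site, over a coding exon at chr6:99009700-99010270, went from 5.67 to 6.95 (1.28).

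The lower Foxp1 sites were elsewhere in the gene. The intronic site at chr6:99439730-99440420, 4.73 kb upstream of the TSS at 85.6 kb, had 6.98 in WT and 5.65 in DKO (126 and 50.2 normalized reads). This TSS had no promoter site. The window printed above from this site contains the single forkhead string found among the 5 windows. A weaker intronic site at chr6:99071580-99071820 had 4.38 and 3.65, a call that ended with 8 reads added (-0.49). Beyond 50 kb of any TSS lay 4 more sites of the gene, among which the one at chr6:99079010-99079720 was also lower (7.16 and 6.50). Sites from 50 kb to 1 Mb around Foxp1 had a median difference of -0.04.

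**Figure D4:**
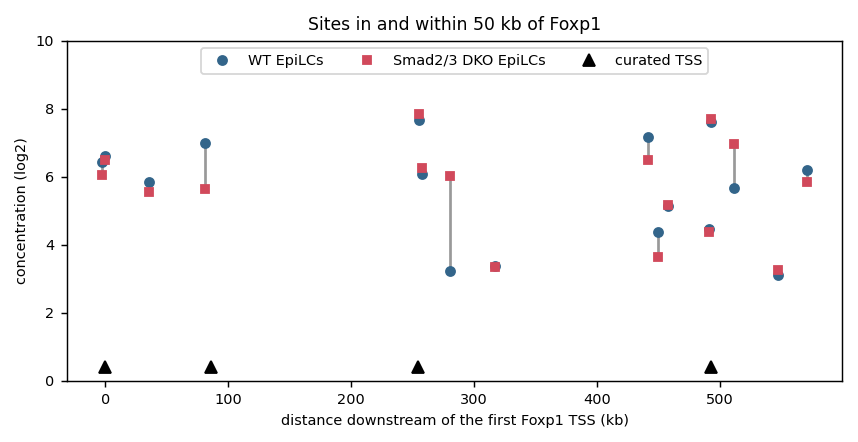
Concentration (log2; vertical axis) in WT and DKO EpiLCs at the 16 sites in or within 50 kb of Foxp1, by distance downstream of its most upstream TSS (kb; horizontal axis), with triangles at the 4 TSSs. The sites near 280 and 511 kb are higher in DKO, those near 80.9, 441.6 and 449.3 kb are lower, and the promoter sites coincide.

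Foxi3, a regulator of placodes and ectodermal appendages at chr6:70956606-70961066 on the plus strand, was the one gene whose sites all passed the fold. Besides the promoter, the site 7.84 kb downstream of the TSS had 7.97 in WT and 6.90 in DKO, the site at 9.14 kb had 5.88 and 3.98, the site at 11.1 kb had 5.73 and 4.31, and the site 34.8 kb upstream, nearest to Tex37, had 5.16 and 3.49. The differences of the 5 sites ran from -1.04 to -1.90, and their DKO reads were 26.8% to 48.6% of WT reads. A neighbourhood of this kind was not seen at any other Fox gene: the sites from 50 kb to 1 Mb around Foxi3 had a median difference of -1.02 and 96.4% were lower, whereas the medians around the other 33 genes ran from -0.27 to 0.20.

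Foxi3 lies within a stretch of chromosome 6, chr6:68829320-80057380 (11.23 Mb), in which DKO was below WT at 188 of the 191 sites that reached a concentration of 4. The median difference there was -1.11 with quartiles of -1.54 and -0.86, its 36 promoter sites had a median of -1.12, and the rest of the chromosome had a median of -0.06. The stretch was bounded by a low running median of these same differences, so its share of lower sites and its median follow in part from that choice. It holds TSSs of 63 genes, of which Foxi3 is the single listed Fox gene. Set against the median of the stretch, the Foxi3 promoter (0.07) and the site at 7.84 kb (0.04) were level with it, and the sites at 11.1 kb (-0.31), 34.8 kb upstream (-0.56) and 9.14 kb (-0.79) were further down. Without the 5 Foxi3 sites, 18 of 174 Fox sites were lower (10.3%) and 0 of the Fox promoter sites passed the fold.

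**Figure D5:**
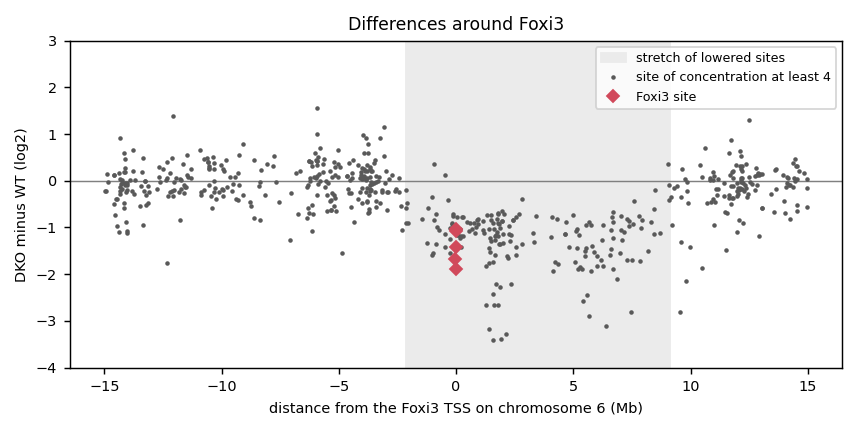
Difference between DKO and WT (log2; vertical axis) for sites with a concentration of at least 4, by distance from the Foxi3 TSS on chromosome 6 (Mb; horizontal axis). The 5 Foxi3 sites (diamonds) lie between -1.04 and -1.90, inside the shaded stretch of 11.23 Mb. The stretch was bounded by its low differences, and 188 of its 191 sites are below 0.

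The 37 sites around Foxa1, Foxa2, Foxd3 and Foxh1, 4 further members of the family, included 8 lower (21.6%) and 1 higher (2.70%), with a median difference of -0.27. Their 4 promoter sites lay within the fold. Of the 33 flank sites of these 4 genes 24.2% were lower, and of the flank sites of the other members 15.3%. Among all flank sites, a class without promoter sites of any gene, 16.7% were lower. With no test available, these shares are values side by side and do not show that the 2 sets differ.

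Consensus strings were searched on both strands in 300 bases around each midpoint. The forkhead string was in 4 of 179 Fox sites (2.23%) and in 4.51% of all sites, the Otx2 string in 9 (5.03%) and 8.71%, the octamer in 2 (1.12%) and 3.15%, and the FoxH1 string in 3 (1.68%) and 1.08%. The Smad element was in 51.4% of Fox sites. The windows of Fox sites were richer in GC (median 57.3%, against 51.0% for all sites). All promoter sites, with a median GC of 65.0%, held the forkhead string in 1.83%, the octamer in 1.03% and the Otx2 string in 4.09%. Whether base composition has a part in the lower shares near Fox genes was not tested. Of the 23 lower sites, 2 held the forkhead string, 2 the octamer and 3 the Otx2 string, and 0 held the FoxH1 string. Of the 13 higher sites, 3 held the Otx2 string and 1 the FoxH1 string. These counts are too small to set the lower and higher sites apart, and a match is not evidence of binding.

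Sites at the edges of the distance limits had these differences. The 3 sites just inside 50 kb were near Foxk1 (0.62), Foxn1 (-0.32) and Foxe3 (0.24), and the 3 just outside were near Foxj3 (0.00) and Foxk1 (0.25 and -0.47). At 1 kb, the last promoter sites were those of Foxc2 (-0.13), Foxd4 (0.21) and Foxa3 (0.21), and the first flank sites those of Foxo3 (0.36), Foxd2 (-0.46) and Foxd1 (0.26).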

How the data were processed

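Day 2 EpiLCs (75000 cells per library, 3 differentiations per genotype) and 100 ng of genomic DNA as 1 control were treated with Tn5. The authors aligned reads to mm10 with Bowtie2, removed duplicates with SAMtools, called sites with DANPOS2 and compared genotypes with DiffBind. Tool versions, the DiffBind normalization and any shift of reads for the Tn5 cut are not given in the sources used here. The deposited table holds log2 concentrations, in which the authors averaged normalized reads over all cell libraries, over WT and over DKO before taking the logarithm. Its 3 columns of the authors' own comparison (fold, p-value and FDR) were not used. Values per library were not analysed here, so depth and replicate spread are unknown, no test was made, and a difference smaller than that unknown spread cannot be recognised.

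Site midpoints were set against 31647 curated RefSeq TSSs of 26180 genes (GRCm38.p6, the build of the table). Positions are printed as listed. Levels per kb divide normalized reads by site width. GC content, CpG ratio and 5 strings were read from 300 bases around each midpoint. Printed sequences are from the same genome, for the sites with the largest difference outside exons. Sites named were the strongest promoter site of each gene and every site past 1.5-fold with a mean concentration of at least 4. Weaker promoter sites and sites under that level that passed the fold were added outside this rule, after their values were seen. The stretch of chromosome 6 was bounded with a running median over 25 sites. The genes, groups and lists were chosen with earlier results of these data known. Alternatives changed the scaling, the signal minimum, the fold, the added reads, the distances, the annotation, the assignment of sites and the summary of several sites, and leaving out the chromosome 6 stretch was chosen after seeing the data. The code was tested on simulated data. Python 3.11.15, numpy 2.4.6, pandas 2.3.3 and matplotlib 3.10.9 were used.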

Additional observations from a re-analysis of the deposited data

How the results depend on the processing

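The number of lower sites (23) was 12 at 2-fold, 15 with 8 normalized reads added to both means and 11 within 25 kb. The number of higher sites (13) was 7 at a concentration of at least 4, 7 at 2-fold, 8 with 8 reads added and 6 within 25 kb. Under the other alternatives both counts stayed within 1.5 times these values, the widest being 34 and 19. With differences centred on the median of all sites, 18 sites were lower and 18 higher. The larger number of lower than higher sites therefore depends on the scaling. Shares over all sites are given above for the minimum concentration of 4 and not for the other settings. The distance settings also change the number of Fox sites. These counts therefore do not show how Fox sites compare with sites in general at each setting. The median difference at flank sites ran from -0.16 to -0.07. At promoter sites it ran from -0.04 to 0.04, so its sign is not settled. The promoter median exceeded the flank median by 0.11, and by 0.06 to 0.12 under the alternatives. The number of genes whose flanks lay below their promoter was 13 to 20.

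Of the 23 sites past 1.5-fold with a mean concentration of at least 4, 18 stayed past 1.5-fold when differences were centred on the median of all sites (-0.08) and 14 with 8 reads added. Centring ended the call at the 3 Foxp4 sites, Foxb1 and the Foxd4 site in Cbwd1. Adding 8 reads ended it at those of Foxo3, Foxj2, Foxk1, Foxb1, the Foxm1 site in Itfg2, the Foxd4 site in Cbwd1, 2 Foxp4 sites and 1 Foxp1 site. No paired analysis was possible because the table holds genotype means without the libraries behind them, which also prevented leaving out a replicate.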
